A study of Mus musculus with 21 samples.

Results

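The outer beta-globin sites HS-62 and 3' HS-1 were each used as the viewpoint of 1 fetal liver library in 4C-seq, a method that reads out which stretches of a chromosome lie close to 1 chosen fragment. These 2 libraries were chosen by their labels, out of 21 libraries in the series, 7 at the beta-globin locus and 4 of those in liver. Both came from C57BL/6 mouse livers at 14.5 days post coitum, where 10 to 12 livers were suspended together and the equivalent of 2 livers was fixed with 2% formaldehyde for 10 minutes. The HS-62 library was cut with NlaIII and then DpnII, and the 3' HS-1 library with DpnII and then Csp6I. Enzymes and viewpoint therefore change together, and their parts in a difference cannot be told apart. Each viewpoint had 1 library, so the values are given without tests. The 3' HS-1 fetal brain library that is set beside them came from embryos of the same strain and age, with the equivalent of 4 brains fixed in the same way and cut as the 3' HS-1 liver library. A whole liver was used with no sort, so each profile averages over all its cells. The files hold contact signal and no expression values, so the tissue could not be checked against marker genes.

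The beta-globin cluster holds genes that are switched on in turn during development, with the locus control region, of which HS-2 is a strong enhancer element, on the side of the embryonic genes. HS-62 lies further out on that side and 3' HS-1 at the opposite end, both among olfactory receptor genes. They are nuclease-hypersensitive sites known to bind CTCF, an architectural protein that can hold distant sites together in loops, and in mouse erythroid cells they are known to cluster with the locus control region and the active gene. Fetal liver is the blood-forming organ of the mouse fetus at this stage. In the gene table (GRCm38.p6), which is used here for order alone, all 20 genes before the adult gene Hbb-bt and 18 of the 20 after the embryonic gene Hbb-y are named as olfactory receptors.

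What a 4C library can see is set by where its first enzyme cuts. DpnII cuts at GATC and NlaIII at CATG. Both read the same on either strand and may share a base where they overlap. Searched as exact letters and counted separately, they were found in 48% and 61.1% of 32851 RefSeq promoters of 300 bases. RefSeq promoter windows were matched for 4 of 5 globin genes, of which 2 held a DpnII site and 1 an NlaIII site. Shown here are an adult and an embryonic gene that lie between the outer viewpoints, each running from 250 bases before to 50 bases after the start, with first-cut sites of both libraries in capitals. C57BL/6 mice carry the adult genes now called Hbb-bs and Hbb-bt, while the labels use the older name Hbb-b1.
Hbb-bs: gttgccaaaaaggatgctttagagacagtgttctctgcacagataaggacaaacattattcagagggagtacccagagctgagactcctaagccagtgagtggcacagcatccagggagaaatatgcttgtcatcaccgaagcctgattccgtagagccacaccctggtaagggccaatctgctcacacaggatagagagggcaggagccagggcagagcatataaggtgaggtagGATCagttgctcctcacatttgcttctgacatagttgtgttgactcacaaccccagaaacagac
Hbb-y: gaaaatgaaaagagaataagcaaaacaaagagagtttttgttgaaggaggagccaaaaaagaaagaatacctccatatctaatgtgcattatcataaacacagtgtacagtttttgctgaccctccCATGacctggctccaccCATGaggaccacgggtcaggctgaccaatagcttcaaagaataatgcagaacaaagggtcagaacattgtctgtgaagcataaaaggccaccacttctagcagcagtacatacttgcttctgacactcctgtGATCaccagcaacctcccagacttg
The Hbb-bs window (chr7:103827879-103828178, minus strand, GRCm38.p6, RefSeq) holds 1 DpnII site and no NlaIII site. The Hbb-y window (chr7:103853158-103853457, minus strand, same build) holds 1 DpnII site and 2 NlaIII sites. Because the fragments differ in this way, profiles were compared in bins of 5 kb. All other coordinates below are those of the files (mm9, chromosome 7) and cannot be set against these 2.

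The HS-62 profile ran from 110700000 to 111300000 and the 3' HS-1 profile from 110800000 to 111200000, in steps of 1000 bp. Signal was highest at 111058000 in the HS-62 library and at 110944000 in the 3' HS-1 library. HS-62 was placed at 111058000, and 3' HS-1 at 110942500, the midpoint of its liver and brain maxima. These points lie 115.5 kb apart, with the Hbb-b1 promoter at 110977000 and HS-2 at 111006000 between them. Relative signal is the middle value of the 5 kb smoothing window over the mean of all positions more than 10 kb from the viewpoint. That mean was 0.0678 in the HS-62 library and 0.0271 in the 3' HS-1 library. HS-62 was read over a longer range, and over the range of both files its mean is 1.44 times as high, so with that mean its relative signals would be lower by that factor. Empty positions made up 3.48% of the HS-62 library and 3.99% of the 3' HS-1 library. The commonest value, 0.106 relative to the mean, filled 27% of HS-62 positions, while in the 3' HS-1 library it was 0.338 and filled 12.9%. Low values at these floors have no order, and sequencing depth is unknown.

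By a decay pooled over both sides, the outer sites were read in each other's library above the level expected for their distance. Observed over expected (O/E) compares the average signal up to 5 kb on either side of a target with that of a monotone decay fitted to both sides of the viewpoint, with 10% of the library mean added to both. From HS-62, the 3' HS-1 target (110937500 to 110947500) had O/E 1.95. From 3' HS-1, the HS-62 target (111053000 to 111063000) had O/E 1.51. Neither reached the 2-fold threshold used here for a call. Both targets lie on the globin side of the viewpoint, which held more signal in both libraries, and pooling the sides raises O/E there. In rank, the first was 32nd of 575 positions of its library and the second 45th of 376.

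Signal at the reciprocal targets was 0.185 on average from HS-62, with 0.0692 for the lower and 0.478 for the higher value of the window. From 3' HS-1 it was 0.0351, between 0.0166 and 0.144. In relative signal these were 2.72 and 1.30. The signal expected from the decay was 0.0915 from HS-62 and 0.0224 from 3' HS-1, which lies between the lower and the middle value in both. Lower and higher values describe the spread within a window and not between libraries. With the decay fitted on the globin side alone, O/E was 1.18 from HS-62 and 1.22 from 3' HS-1. From 3' HS-1 in brain the HS-62 target had relative signal 0.591 and O/E 0.92, or 1.14 with the one-sided decay, so liver was higher than brain with the pooled decay and the one-sided values lay close together. With the pooled decay HS-62 had O/E 0.929 from HS-2 and 1.78 from the Hbb-b1 promoter, and 3' HS-1 had 1.93 and 0.208. By the one-sided decay these 4 values were 1.55, 1.28, 1.27 and 1.54, all above 1.

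By the middle window value, the peak of the HS-62 profile stood beside the 3' HS-1 viewpoint rather than on it. Beyond 10 kb, the highest position of all 575 in the HS-62 library was 110948000, with relative signal 7.65, and 110949000 held the same value. Signal was 7.36 at 110950000 and 4.75 at 110951000, whereas from 110941000 to 110944000 it stayed between 2.35 and 2.38. The summit thus lay 5.5 kb from the 3' HS-1 point on the side of the globin genes, and 110 kb from HS-62. Centring the target on the 3' HS-1 liver maximum, a choice made after the data were seen, gave a log2 O/E of 1.35, past 2-fold, against 0.96 at the midpoint. In the reverse direction signal around HS-62 was flatter, with its highest value, 1.87, at 111054000 and 0.945 from 111059000 to 111063000. That maximum also lay on the globin side of the site it belongs to, by 4 kb.

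**Figure D1:**
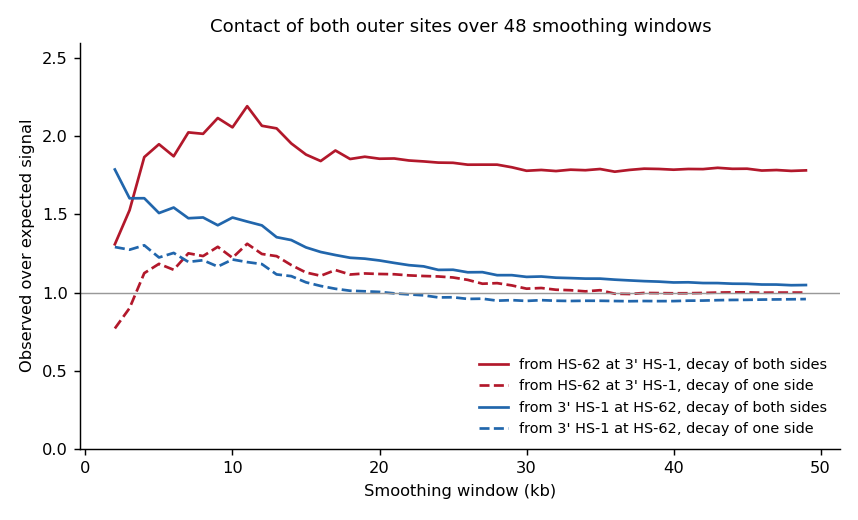
O/E of the reciprocal targets (vertical axis) against the smoothing window in kb (horizontal axis), for 3' HS-1 from HS-62 (red) and HS-62 from 3' HS-1 (blue), with the decay of both sides (solid) and of the globin side alone (dashed). Solid lines stay above 1 in all 48 windows, peaking at 2.19 (11 kb) from HS-62 and at 1.79 (2 kb) from 3' HS-1. Dashed lines reach at most 1.31 and 1.30 and exceed 1 by more than 1% in 31 and 17 windows. The one-sided fit can take up the target's own signal, which limits these counts.

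Over all 48 window sizes the O/E of 3' HS-1 from HS-62 ran from 1.31 at 2 kb to 2.19 at 11 kb and passed 2-fold in 7 windows. The O/E of HS-62 from 3' HS-1 ran from 1.79 at 2 kb down to 1.05 at 48 kb and passed 2-fold in 0. They exceeded 1 by more than 1% in 31 and 17 windows when the one-sided decay was used. Between the outer sites, HS-2 (111001000 to 111011000) had O/E 1.44 from HS-62 and 1.26 from 3' HS-1. The Hbb-b1 promoter (110972000 to 110982000) had 1.39 from HS-62 and 1.46 from 3' HS-1. Both inner targets also lie on the globin side. With the pooled decay, which raises O/E there, they were above 1 by that margin in all 48 windows from either end. With the one-sided decay, the promoter was so in 0 windows from HS-62 and in 8 from 3' HS-1. HS-2 was so in 2 windows from HS-62 and in 17 from 3' HS-1. The one-sided decay is fitted to the signal of that same side, so in level stretches of the fit observed and expected match by construction. From HS-62 the one-sided O/E was 1 for HS-2 at 26 kb and for 3' HS-1 at 43 kb. Counts of windows by this decay are therefore no measure of contact. HS-85, a further hypersensitive site placed from the HS-62 point by the distances in their names, had O/E 0.995 from HS-62 at 23 kb and 1.59 from 3' HS-1 at 138.5 kb. With the decay of the side it lies on alone, these were 1.33 and 1.29, so the contrast rests on the pooled decay.

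Seen from opposite ends, the locus was divided in nearly the same shares. The profiles shared 68 bins of 5 kb outside 10 kb of both viewpoints, 25 below 3' HS-1, 18 between the viewpoints and 25 above HS-62. Between the viewpoints lay 50.2% of the HS-62 signal and 47.3% of the 3' HS-1 signal. Below 3' HS-1 were 25.9% from HS-62 and 28% from 3' HS-1, and above HS-62 were 23.9% from HS-62 and 24.7% from 3' HS-1. HS-62 thus placed about as large a share on the far olfactory flank as 3' HS-1 did, although that flank begins more than 115.5 kb away from it. Within the middle section, the 8 bins from HS-2 to HS-62 held 28.8% of the HS-62 signal and 25.4% of the 3' HS-1 signal. The 6 bins from the Hbb-b1 promoter to HS-2, where the embryonic genes lie, held 12.1% from HS-62 and 11% from 3' HS-1. These shares need no decay and no library mean. They do include the floors, which are unlike, with a commonest value of 0.338 of the mean from 3' HS-1 and 0.106 from HS-62. A higher floor adds to the flank shares. In 9 other settings the share between the viewpoints was 46% to 51.6% from HS-62 and 45.6% to 54.1% from 3' HS-1.

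**Figure D2:**
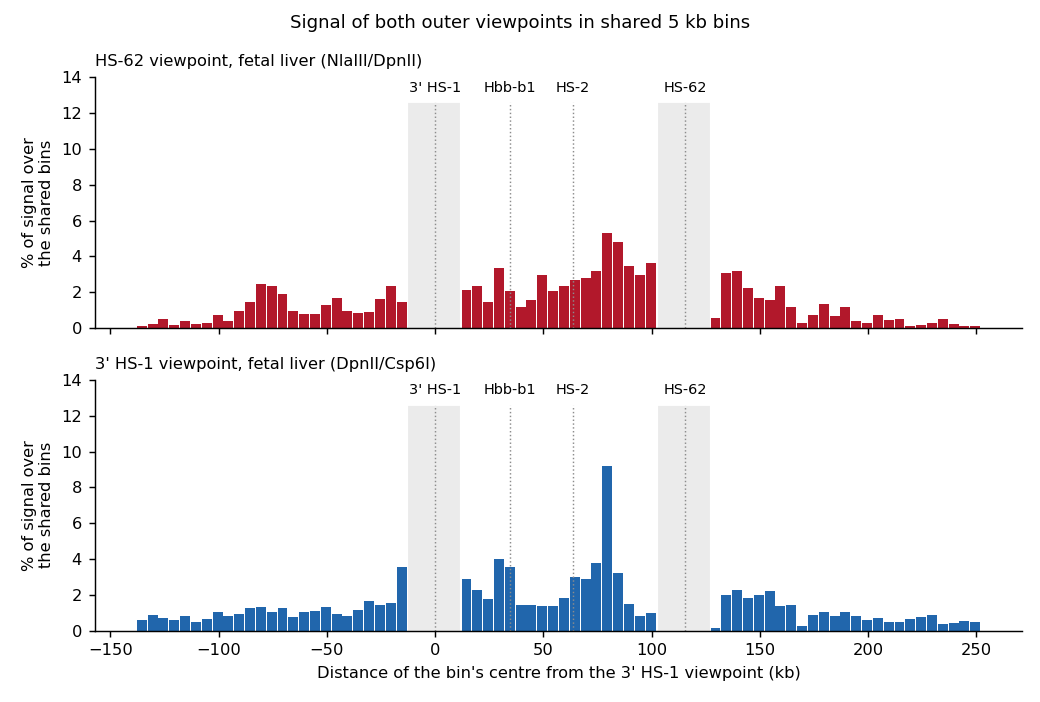
Percent of each library's signal over the 68 shared bins (vertical axis) against the distance of the bin from the 3' HS-1 viewpoint in kb (horizontal axis), for HS-62 (upper panel) and 3' HS-1 (lower panel). Dotted lines mark the 4 viewpoints, and grey bands the spans left out, wider than 10 kb because whole bins were dropped. The tallest bar of both panels, 5.32% for HS-62 and 9.22% for 3' HS-1, is the same bin between HS-2 and HS-62.

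One bin led both profiles. At 111020000 to 111024999, between HS-2 and HS-62, relative signal was 4.79 from HS-62 and 6.08 from 3' HS-1, rank 1 of 68 in each. The bins nearest to the viewpoints, which hold the HS-62 summit beside 3' HS-1, are not among the 68. The lower and higher window values were 1.64 and 9.90 from HS-62 and 2.41 and 15.9 from 3' HS-1, so the window ranges overlap. O/E was 1.76 from HS-62, 35.5 kb away, and 4.31 from 3' HS-1, 80 kb away. By the one-sided decay these were 1.33 and 3.04. From 3' HS-1 in fetal brain, where the globin genes are silent, the same bin had relative signal 1.02 and O/E 1.19. The other liver viewpoints were high there too, with relative signals of 12.9 from HS-2, 16.5 kb away, and 8.40 from the Hbb-b1 promoter. With the pooled decay O/E was 1.84 from HS-2 and past 2-fold from Hbb-b1. By the one-sided decay these were 1.046 and 1.203, so most of that height was in the expected signal.

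The maxima of O/E, taken at least 20 kb apart, differed more. From HS-62 they lay at 110946000 (O/E 2.99), beside 3' HS-1, then at 110864000 (2.78), 110919000 (1.88) and 110895000 (1.72) on the flank below it, and at 111023000 (1.68). In the 3' HS-1 library the 3 flank maxima had O/E between 0.563 and 0.719 with the pooled decay. They lie on its outer side, where pooling the sides lowers O/E. From 110860000 to 110874999, which holds the first of them, O/E from 3' HS-1 was 0.635, but 1.12 with the one-sided decay. The maxima from 3' HS-1 lay at 111024000 (3.02), 111054000 (1.65) beside HS-62, 111080000 (1.63), 110975000 (1.57) beside the Hbb-b1 promoter and 111004000 (1.15) beside HS-2. With the one-sided decay the flank maxima of HS-62 at 110919000 and 110895000 had O/E 1.07 and 1.05, and the 3' HS-1 maximum at 111004000 had 0.812, below expectation. A maximum near 111023000 was in both lists. Those beside the outer sites lie within 10 kb of the partner viewpoint and could not be looked for in its library.

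A second common bin lay next to the Hbb-b1 promoter. At 110970000 to 110974999, relative signal was 3.02 from HS-62, rank 5, and 2.64 from 3' HS-1, rank 2. O/E was 2.05 and 1.70, and 1.28 and 1.34 with the one-sided decay. From 3' HS-1 in brain the bin had relative signal 1.96 and O/E 0.973, or 1.17 with the one-sided decay. Of the 17 bins with the highest signal in each library, 9 were common to both, 52.9% of each list, where each list holds 25% of all bins. Of these 9, 7 lay between the viewpoints, as did 11 of the 17 in each list. The remaining 2, at 111075000 to 111084999 around HS-85, had relative signals of 2.78 and 2.88 from HS-62 and 1.31 and 1.50 from 3' HS-1.

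Across all shared bins the profiles ran together in relative signal, but not in O/E. Spearman's rho of relative signal was 0.810 over 68 bins, and 75% of bins lay within 2-fold of each other. The Spearman correlation of O/E, which takes out a decay with distance, was -0.13 over the same bins, and 0.427 with the one-sided decay. The SD of the log2 ratio was 0.80 for relative signal and 1.26 for O/E. Neighbouring bins share a library and overlapping windows, and signal falls away on both flanks in both libraries. Within sections rho of relative signal was 0.736 below 3' HS-1, 0.257 between the viewpoints and 0.755 above HS-62. Between the viewpoints a bin that is nearer to one is farther from the other.

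**Figure D3:**
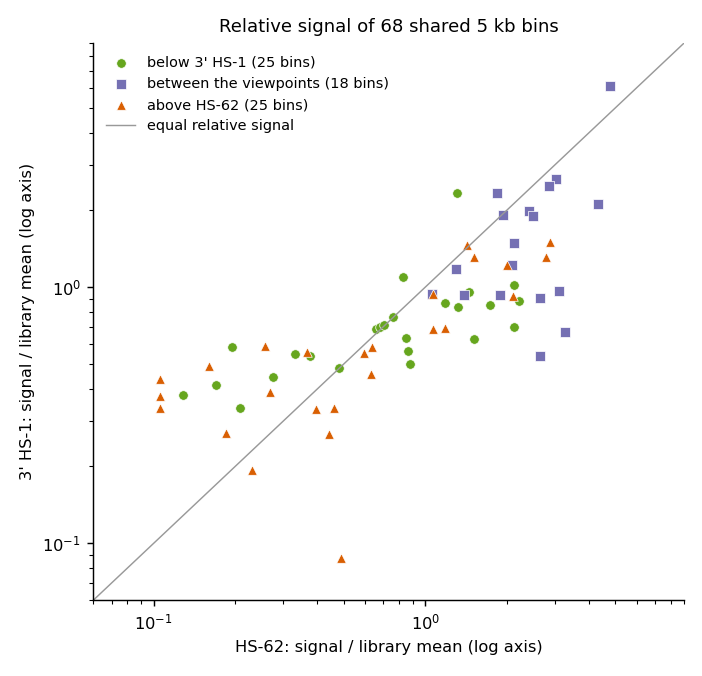
Relative signal of the 68 shared bins from HS-62 (horizontal) and from 3' HS-1 (vertical), both on log axes, with bins below 3' HS-1 as circles, between the viewpoints as squares and above HS-62 as triangles. The line marks equal values. Bins between the viewpoints sit highest, up to 4.79 and 6.08, and the triangles stacked at 0.106 on the left lie at the commonest value of the HS-62 library.

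Only 5 of 68 bins (7.35%) reached O/E 2 from HS-62, and 1 (1.47%) did so from 3' HS-1, the leading bin described above. At or below 1/2 were 16 bins (23.5%) from HS-62, all above HS-62, and 5 bins (7.35%) from 3' HS-1. With the one-sided decay, 0 and 1 bins reached O/E 2, and 3 bins from each viewpoint were at or below 1/2. With a power-law decay 15 bins from HS-62 reached 2. Taken as a ratio of O/E, HS-62 was at least 2-fold higher in 14 bins (20.6%) and at most 1/2 of 3' HS-1 in 17 bins (25%). Of the 14, 13 lay below 3' HS-1, and of the 17, 16 lay above HS-62. This split by flank is built in by pooling both sides in 1 decay when the sides differ in level, and it is not a measured difference between the flanks. With the decay on one side at a time 2 bins were higher and 1 lower past 2-fold, with 0 higher below 3' HS-1 and 0 lower above HS-62. With no decay 11 were higher and 6 lower, with 3 higher on each flank. In relative signal HS-62 was higher in 11 of 25 bins below 3' HS-1 and in 16 of 25 above HS-62. These counts, and those with no decay, use the HS-62 mean over its longer range. With its mean over the range of both files, 1.44 times as high, relative signal of HS-62 would be higher in fewer bins of each flank. It would then no longer be higher in most bins above HS-62. The lower window value of HS-62 exceeded the higher one of 3' HS-1 in 1 bin (1.47%), 111040000 to 111044999, named after its values were seen, 15.5 kb from HS-62. The opposite held in 0 bins (0%).

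By O/E with the pooled decay, the bins where HS-62 exceeded 3' HS-1 most lay on the olfactory flank below 3' HS-1. At 110865000 to 110869999 relative signal was 2.13 from HS-62 and 0.701 from 3' HS-1. O/E was 2.73 and 0.558, a log2 difference of 2.29. HS-62 is the more distant viewpoint here, and still higher in relative signal, by 1.48 on the log2 scale. With the same addition, the largest log2 difference in relative signal, 2.13, was at 111040000, near HS-62. Over the 3 bins from 110860000 to 110874999, relative signal was 2.02 from HS-62, 190.5 kb away, and 0.811 from 3' HS-1, 75 kb away. Values from the other viewpoints were 0.940 from 3' HS-1 in brain, 0.0664 (Hbb-b1) and 0.0654 (HS-2) in liver. Lower and higher window values were 0.586 and 4.38 from HS-62 and 0.193 and 2.14 from 3' HS-1, so they overlap. O/E by the one-sided decay was 1.59 from HS-62 and 1.12 from 3' HS-1. Further such bins began at 110895000 and 110920000, with log2 differences of 1.96 and 1.60, and at 110875000 with 1.52.

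Between the genes, the bin at 110990000 to 110994999, in the stretch from the Hbb-b1 promoter to HS-2, differed by 1.36 on the log2 scale. Its relative signal was 2.64 from HS-62 and 0.903 from 3' HS-1, and 0.789 from 3' HS-1 in brain. HS-62 was lowest against 3' HS-1 far out on its own side. At 111160000 to 111164999 relative signal was 0.106 from HS-62, its commonest value, and 0.438 from 3' HS-1. O/E was 0.135 and 1.01 there, a log2 difference of -2.90. Bins beginning at 111185000, 111170000 and 111140000 differed by -2.64, -2.41 and -1.86, with HS-62 relative signals of at most 0.268. A difference against a floor is set by that floor and by the pseudocount. The nearest bin of this kind, at 111095000 to 111099999, had relative signals of 1.42 and 1.46 and differed by -1.48 in log2 O/E but by -0.03 in log2 relative signal.

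Both outer viewpoints leaned towards the globin genes. Counting equal distances to either side and leaving out the nearest 10 kb, 76.4% of signal fell on the globin side of HS-62 (reach 239 kb) and 66.1% on the globin side of 3' HS-1 (reach 140.5 kb). Within 140 kb these shares were 74.9% and 66.1%. From 3' HS-1 in brain the share within 140 kb was 42.3%. For HS-62 no brain library was analysed here.

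From HS-62 the lean was largest at 100 to 140 kb. At 10 to 20 kb its globin side had a mean relative signal of 3.25 and its outer side 1.66, a ratio of 1.96. At 80 to 100 kb these were 2.13 and 0.452, and at 100 to 140 kb, where 3' HS-1 lies, 2.6 and 0.183, a ratio of 14.2. Farther out the ratio was 6.11 at 140 to 200 kb and 2.28 at 200 to 239 kb (0.458 on the globin side and 0.201 on the outer side). Beyond 100 kb the outer side stands near the commonest value of the library, 0.106. From 3' HS-1 the ratio was 0.855 at 10 to 20 kb, where the outer side was higher, 3.68 at 60 to 80 kb and 2.00 at 100 to 140 kb. The distance of 60 to 80 kb spans HS-2 and part of the leading bin. Signal towards the globin genes did not fall steadily in either library, with a low at 60 to 80 kb from HS-62 (1.71) and at 40 to 60 kb from 3' HS-1 (0.963).

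**Figure D4:**
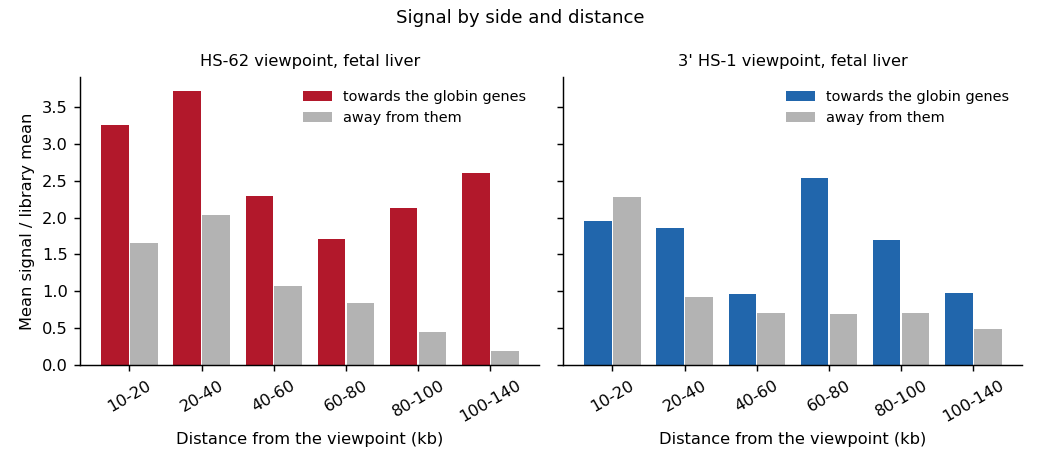
Mean relative signal (vertical axis, from 0) by distance from the viewpoint in kb (horizontal axis), on the globin side (coloured) and on the outer side (grey), for HS-62 (left) and 3' HS-1 (right). For HS-62 the coloured bar is higher at every distance and 14.2 times the grey one at 100 to 140 kb. For 3' HS-1 the grey bar is higher at 10 to 20 kb and lower from 20 kb on.

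HS-62 alone was read over 600 kb. Signal above its library mean was found in the middle of this range and ended on both sides within it. By stretches of 50 kb, mean relative signal was 1.32 from 110850000 and 0.295 in the stretch before it, from 110800000. On the upper side it was 0.817 from 111100000 and 0.232 from 111150000. Between 110850000 and 111100000 each stretch averaged 1.32 to 3.12.

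The flanks that lie beyond the 3' HS-1 profile held little signal. The lower one, of 100 positions, carried 2.43% of the signal of the library and the upper one, also of 100, 3.48%. Their mean relative signals were 0.14 and 0.2, and 69% and 56% of their positions stood at the commonest value. No position of either flank was above the library mean, with maxima of 0.621 and 0.831. O/E was 1.02 in the lower flank and 0.447 in the upper one, which is nearer to HS-62. The upper side reaches only 239 kb, so at the lower flank the decay rests on the lower side alone. A value near 1 is built in there. At the upper flank the decay pools in the higher globin side, which lowers O/E, so these 2 values do not compare the flanks. Maxima with O/E above 1 and signal in the top 25% of the library numbered 0 in these flanks. The top 25% lies above the library mean, so this count follows from the signal limit and says nothing on O/E. From HS-62, 50% of the signal beyond 10 kb lay within 83 kb and 90% within 195 kb, while from 3' HS-1 these distances were 78.5 and 173.5 kb.

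**Figure D5:**
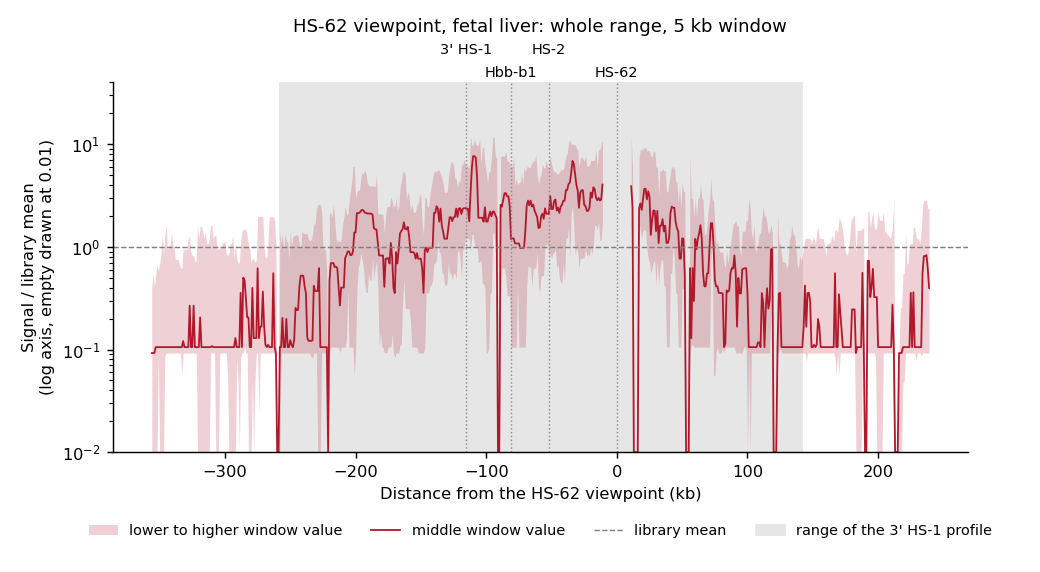
Signal of the HS-62 library divided by its mean (vertical log axis, empty positions drawn at 0.01) against the distance from HS-62 in kb (horizontal axis). The line is the middle value of the 5 kb window, the pale band runs from the lower to the higher value, the grey area is the range of the 3' HS-1 profile, and dotted lines mark the 4 viewpoints. Positions within 10 kb of HS-62 are left out. Of those drawn, the line peaks at 7.65 beside 3' HS-1 and lies mostly at 0.106 in both far flanks.

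Empty positions were largely common to both libraries. Of 355 shared positions beyond 10 kb of both viewpoints, 13 were empty from HS-62 and 15 from 3' HS-1, and 12 in both, 92.3% and 80% of each set. They formed 4 runs, at 110967000 to 110968000, 111071000 to 111074000, 111111000 to 111113000 and 111178000 to 111180000. All positions of these runs were also empty from both inner viewpoints in liver and from 3' HS-1 in brain. Empty positions were common in the inner libraries, at 51.5% (HS-2) and 24% (Hbb-b1) of those beyond 10 kb, so their overlap says little. In the brain library 6.65% were empty. The bin at 111070000, of whose 5 positions 4 were empty in both libraries, had relative signals of 0.489 from HS-62 and 0.0874 from 3' HS-1.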

How the data were processed

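The signal values are the authors' deposited ones, in files without header. Column 1 is a position (mm9, per the submitters' processing notes), and the other columns hold a middle, a higher and a lower signal for 48 running windows of 2 to 49 kb, as read from the unfilled ends of the columns. Columns 11 to 13 are the 5 kb window. The file names speak of normalized medians. Aligner, filters, read numbers and pooling of runs: not given in the sources used here. Without a known depth, counting intervals cannot be had. From these signals relative signal, O/E and bins were computed with Python 3.11.15, numpy 2.4.6 and pandas 2.3.3, and O/E was tried on simulated profiles. Those profiles had the same decay on both sides and no floor, so they do not cover the unequal sides and floors met here. A monotone decay can take part of a peak into the expectation, and a decay pooled over unequal sides raises O/E on the higher side, so one-sided values are given too. Named positions are all viewpoints of the locus, up to 5 maxima per library at least 20 kb apart, and up to 5 bins per direction with the largest O/E difference at least 10 kb apart. A call is 2-fold. Members and rules were chosen with earlier results of these data known. HS-60 lies within 10 kb of HS-62, so it has no value from that viewpoint, and from 3' HS-1 its target overlaps that of HS-62.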

Additional observations from a re-analysis of the deposited data

How the results depend on the processing

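No paired analysis was possible because each viewpoint had 1 library. A value was taken to have moved if it shifted by over 0.50 in log2 O/E, the SD between 2 template amounts of an Hba-a1 library, by 0.1 in rho, by 10 points or by 1.5 times in a count. Shares of signal, rho of relative signal (0.768 to 0.882 in 10 settings) and the log2 O/E of HS-62 from 3' HS-1 (0.27 to 1.07 in 16) did not. In the 48 kb window, which is not among these 16 settings, that log2 O/E was 0.066 against 0.594, a shift past the limit. The log2 O/E of 3' HS-1 from HS-62, 0.96, stayed positive and was 0.39 in the 2 kb window, 0.24 with the one-sided decay and 1.92 with a power-law decay. With the one-sided decay HS-2 turned to -0.03 from HS-62 and -0.17 from 3' HS-1, and Hbb-b1 to -0.20 from HS-62 (-0.29 with the lower column).

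Counts of bins moved most. HS-62 bins at O/E 2 or more (5) numbered 3 in the 10 and 20 kb windows, 0 with the higher column, 8 and 2 with pseudocounts of 1% and 50%, 0 with the one-sided, 15 with the power-law and 17 with no decay, and 1 over the range of both files or in 10 kb bins. Those at 1/2 or less (16) numbered 3 with the one-sided decay and 6 in 10 kb bins. 3' HS-1 bins at 2 or more (1) numbered 3 in the 2 and 10 kb windows, with the lower column and with the power law, 2 with the higher column and 6 with no decay. Those at 1/2 or less (5) numbered 18 in the 2 kb and 1 in the 10 and 20 kb windows, 16 and 17 with the higher and lower columns, 1 with a pseudocount of 50%, 3 with the one-sided and 14 with no decay, and 0 in 10 kb bins. HS-62 over 3' HS-1 at 2-fold or more (14) numbered 8 with a pseudocount of 50%, 2 with the one-sided decay, and 7 over the range of both files or in 10 kb bins. At 1/2 or less (17) it numbered 11, 1 and, with no decay, 6, and 8 in 10 kb bins. There are about 1/2 as many 10 kb bins. The Spearman correlation of O/E (-0.13) was 0.018, -0.26 and -0.30 in the 2, 10 and 20 kb windows, 0.427 with the one-sided and 0.081 with the power-law decay, 0.0020 over the range of both files and -0.25 in 10 kb bins. With no decay it equals rho of relative signal, 0.810. Other causes were not tested. Placing 3' HS-1 at its liver maximum and leaving out bins at the commonest value were chosen after seeing the data.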
